A study of Mus musculus with 8 samples.

Results

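The 10 genes described here are named long non-coding RNA genes measured in activated mouse CD4+ T cells: Malat1, Neat1, Kcnq1ot1, Gas5, Snhg1, Snhg5, Snhg8, Snhg12, Snhg15 and Mir155hg. All stood among the 78 most abundant of 1133 tested long non-coding RNA genes by mean CPM, that is by counts, although Kcnq1ot1, being very long, and Neat1 were low per length. They were picked by gene symbol from the table of normalised expression that the authors deposited, and make up 10 of the 57010 genes in the gene-level files. All 10 passed the filter on low counts, which kept 13378 genes. Peripheral lymph nodes of wild-type C57BL/6 mice gave naive CD4+ T cells, which were purified by flow sorting. They were then cultured for 20 h in RPMI medium with 10% serum in wells coated with anti-CD3 and anti-CD28 (each at 4 µg/mL), antibodies that mimic antigen and costimulation. The FAC group was 4 such cultures given iron, FAC in the labels, and the control group was 4 such cultures without it. Both groups had the same genotype, stimulus and time, and each mouse number in the labels names 1 FAC and 1 control culture, so that a library is called here by its group and mouse. In GENCODE M21, an annotation of the mouse genome build GRCm38, Malat1, Neat1 and Snhg1 lie on chromosome 19, Gas5 on chromosome 1, Snhg8 on 3, Snhg12 on 4, Kcnq1ot1 on 7, Snhg5 on 9, Snhg15 on 11 and Mir155hg on 16. The dose of FAC, any vehicle in the control cultures and the ages of the mice are not stated in the labels.

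Long non-coding RNAs are transcripts that act, where a function is known, without being translated into a conserved protein. Malat1 RNA is kept in the nucleus and gathers at nuclear speckles, where splicing factors are stored. Neat1 RNA is the scaffold of paraspeckles, nuclear bodies that hold back certain RNAs and proteins, and Kcnq1ot1 is an imprinted antisense RNA that silences neighbouring genes on the paternal chromosome. Gas5 and the Snhg genes carry small nucleolar RNAs (snoRNAs, guides for the chemical modification of ribosomal RNA) in their introns. Their spliced RNAs are often read by ribosomes and removed by nonsense-mediated decay. Mir155hg, also called Bic, is the primary transcript of the microRNA miR-155, which is induced when T cells are activated.

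The letters that set some of these RNAs apart are given first, as a description. The gene lists used below were drawn up by gene symbol, and only the miR-155 seed is used again, to count target sites. The 3′ end of Malat1 folds its U-rich stretches around an A-rich stretch into a stable triple helix, which protects an RNA that ends without an added poly(A) tail. In the region shown (GENCODE M21, build GRCm38, minus strand, chr19:5795978-5796077, within the single exon of the full-length transcript), capitals mark both U-rich stretches and the run of 12 A. The A-rich letters go on past that run in lower case, and the annotated transcript continues for 298 bases after the run.
Malat1 3′ region: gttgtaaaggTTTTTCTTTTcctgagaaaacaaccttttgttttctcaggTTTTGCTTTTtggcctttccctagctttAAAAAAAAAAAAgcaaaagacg

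Many snoRNA host genes begin, like ribosomal protein genes, with a C followed by a run of pyrimidines, the terminal oligopyrimidine tract through which growth signals set translation. RefSeq gene starts (build GRCm38.p6) were at hand for 9 of the 10 genes, all but Neat1. A C followed by 4 or more pyrimidines, starting between 5 bases before and 10 bases after the annotated start, was found in 4 of the 9: Gas5, Snhg5, Snhg8 and Snhg12. Of 32851 gene starts, 21.1% held such a tract, as did 4 of 12 other snoRNA host genes. Each line gives 5 bases before the start and the first 40 bases from it, with the tract in capitals where there is one; the starts with a tract come first and Snhg1 and Snhg15, without one, last. The windows lie at chr1:161035161-161035205 on the plus strand for Gas5, chr9:88522858-88522902 on the minus strand for Snhg5, chr3:123508297-123508341 on the minus strand for Snhg8 and chr4:132308673-132308717 on the plus strand for Snhg12. Those of Snhg1 and Snhg15 lie at chr19:8723482-8723526 on the plus strand and chr11:6528721-6528765 on the minus strand.
Gas5 start: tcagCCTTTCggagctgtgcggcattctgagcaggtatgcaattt
Snhg5 start: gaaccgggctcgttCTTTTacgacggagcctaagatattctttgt
Snhg8 start: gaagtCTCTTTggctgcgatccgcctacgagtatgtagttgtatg
Snhg12 start: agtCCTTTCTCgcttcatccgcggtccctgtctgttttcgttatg
Snhg1 start: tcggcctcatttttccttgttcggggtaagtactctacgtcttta
Snhg15 start: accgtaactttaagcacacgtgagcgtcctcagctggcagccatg

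Gas5 has a second RefSeq start without the tract, and the Snhg1 window holds a pyrimidine run that begins with T. Other motifs were searched for on both strands of windows of 300 bases (250 before the start). TGACGTCA, the letters bound by cAMP response element factors, was in the windows of Gas5 and Snhg15 and in 1.79% of all windows. CACGTG, an E-box of the kind bound by Myc, was in that of Snhg15 and in 7.15% of all windows. TGANTCA (AP-1) was in none of the 9 genes' windows and in 7.81% of all windows. A match is a description of the letters only. The mature miR-155 made from Mir155hg (RefSeq, GRCm38.p6, chr16:84714143-84714165, plus strand) is given with its seed, bases 2 to 8, in capitals, since the seed defines the target sites counted at the end.
mmu-miR-155-5p: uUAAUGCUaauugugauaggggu

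Total counts per library were 25410299 to 32368404 with FAC and 25478740 to 37350654 in controls, so 3 counts correspond to 0.0816 to 0.119 CPM (counts scaled to a common library total). All 10 T cell marker genes were expressed. Cd4 averaged 606 ± 13.0 CPM with FAC and 623 ± 11.8 CPM in controls (SD, n = 4 each; counts scaled for library size with TMM factors, as for each CPM given here). None of the 6 B cell or 9 myeloid and dendritic cell markers passed the filter on low counts, and their summed counts per library were 3 to 12 and 6 to 19 with FAC, against 2 to 11 and 2 to 19 in controls. Of 5 natural killer cell and 8 erythroid and stromal markers, 1 each was tested (Eomes and Pecam1) and neither was called. The T cell gene Cd5 was called higher by 0.14 on the log2 scale (edgeR adjusted p = 0.0304, up to 0.127 with 1 library left out). The CD8 gene Cd8b1 stood at 7.74 ± 1.19 CPM with FAC and 9.51 ± 1.25 CPM in controls. As whole cultures were sequenced, fewer cells expressing an RNA and less of it in each cell cannot be told apart.

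With FAC, 4 of the 10 genes rose and none fell: Malat1, Neat1, Kcnq1ot1 and Snhg15 passed edgeR's quasi-likelihood test at a Benjamini-Hochberg adjusted p under 0.05 over all 13378 genes. The same rule called 3.27% of all tested genes, 2.18% higher and 1.1% lower with FAC. In the same 4 genes every FAC library lay above every control library, as in 6.17% of all genes tested; the reverse held for none of the 10 and for 4.89% of all genes. Gas5, Snhg1, Snhg5, Snhg8, Snhg12 and Mir155hg did not pass the test. Of the 10 genes, 9 had a positive log2 change and the median was 0.27, against 49.6% positive and a median of -0.00 over all genes tested. Other long non-coding RNA genes leaned the same way: 850 of 1123 tested were positive, with a median of 0.28. Of the 72 among them at 10 CPM or more, 51 were positive, with a median of 0.08. The largest changes of the 10 were in Malat1, Neat1 and Kcnq1ot1, each between 0.62 and 0.76 on the log2 scale. With the mouse as a replicate block, which compares the cultures of each animal, 6 genes were called higher, Gas5 and Mir155hg being added, and none lower. That fit called 6.87% of all genes, 4.07% higher and 2.8% lower.

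**Figure D1:**
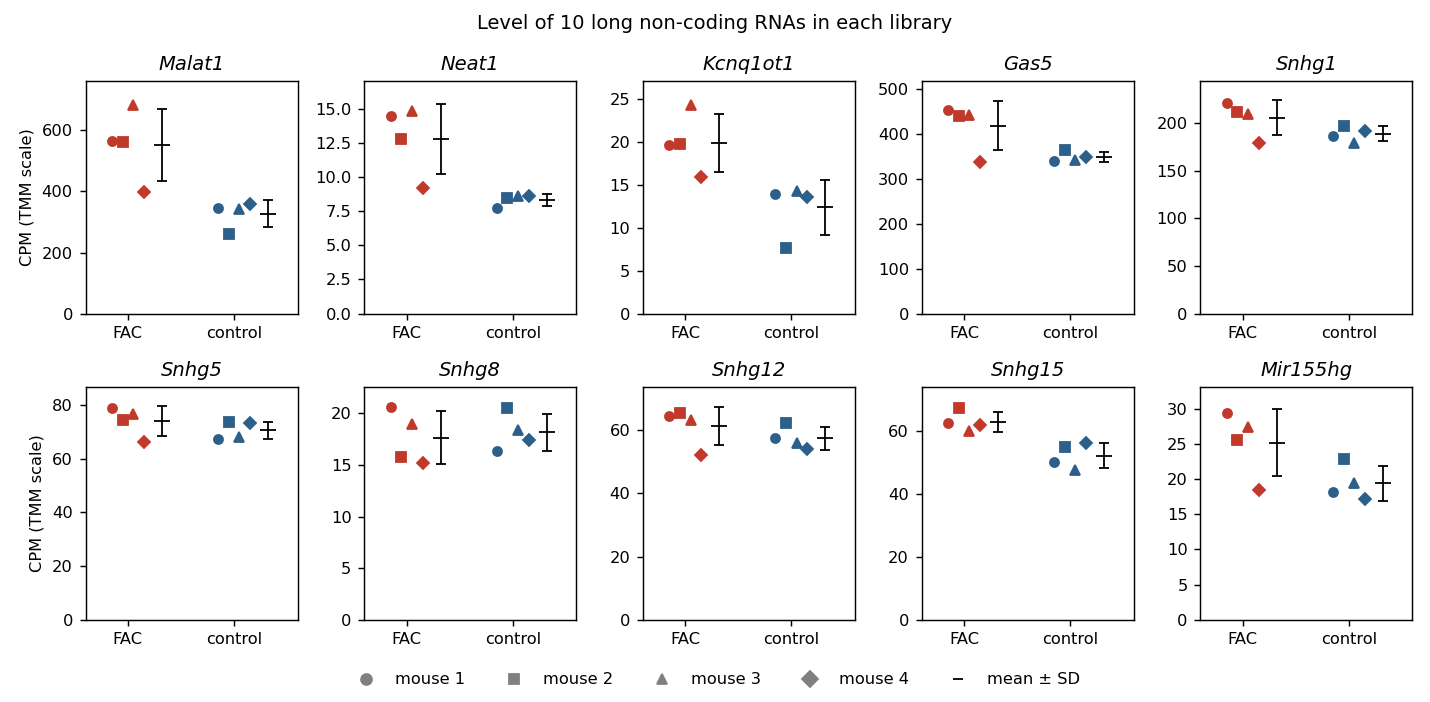
Level of each of the 10 genes in every library, in CPM on the TMM scale, with FAC libraries on the left and control libraries on the right of each panel; marker shapes give the mouse, and black bars the mean ± SD over 4 libraries. The FAC libraries of Malat1, Neat1, Kcnq1ot1 and Snhg15 all lie above the controls, and the FAC library of mouse 4 is the lowest of its group in 9 of the 10 panels.

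By mean CPM over all 8 libraries, Malat1 was the most abundant of the 10 and ranked 4 of 1133 tested long non-coding RNA genes; in controls alone Gas5 was higher. It stood at 565, 562, 684 and 398 CPM in FAC mice 1 to 4, against 345, 261, 343 and 359 CPM in control mice 1 to 4. Every FAC library was above every control library, the FAC library of mouse 4 being closest to the controls. The means were 552 ± 117 CPM with FAC and 327 ± 44.7 CPM in controls (SD, n = 4 each), a log2 change of 0.76 (SE 0.13, 95% confidence interval 0.48 to 1.04, edgeR adjusted p = 0.00795). Malat1 was higher in 4 of 4 mice, by 0.71, 1.11, 1.00 and 0.15 on the log2 scale in mice 1 to 4. Per length, in TPM units, which divide counts by transcript length and scale each library to a fixed total, it stood at 139, 164, 184 and 122 with FAC, against 85.5, 63.1, 91.8 and 99.9 in controls. The call held in all 16 other settings tried, with adjusted p up to 0.0350. The libraries were made with an mRNA kit. Whether capture of Malat1, which ends without an added poly(A) tail, differed between libraries was not tested.

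Neat1 was far less abundant, at 14.5, 12.8, 14.8 and 9.19 CPM in FAC mice 1 to 4 and 7.69, 8.46, 8.60 and 8.62 CPM in control mice 1 to 4. The groups did not overlap, but FAC mouse 4 stood only just above the highest control. The means were 12.8 ± 2.57 CPM with FAC and 8.34 ± 0.441 CPM in controls, a log2 change of 0.62 (SE 0.13, 95% confidence interval 0.34 to 0.90, edgeR adjusted p = 0.0223), with 4 of 4 mice higher. Its annotated transcripts in GENCODE M21 run from 711 to 20771 bases, and the long form is the one that builds paraspeckles. The weighted mean transcript length of Neat1 in these libraries was 3495, 3214, 3379 and 3329 bases with FAC, against 3696, 3051, 3011 and 3401 bases in controls. These means lie near the annotated form of 3004 bases, but a mix of shorter and longer transcripts could give the same mean. The libraries were made with an mRNA kit, and the share of each form was not tested. The Neat1 call ended without FAC 2 (edgeR adjusted p = 0.0711), FAC 3 (0.0937), control 1 (0.0704), control 2 (0.0594) or control 3 (0.0502). It also ended with effective length as an offset (0.0974) and in limma on TPM (0.151) or on the deposited signal (0.117).

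Kcnq1ot1 reached 19.7, 19.8, 24.3 and 16 CPM in FAC mice 1 to 4, against 14.0, 7.64, 14.3 and 13.7 CPM in control mice 1 to 4. The groups did not overlap, and control mouse 2 was far below the other 3 controls. The means were 19.9 ± 3.40 CPM with FAC and 12.4 ± 3.18 CPM in controls, a log2 change of 0.70 (SE 0.17, 95% confidence interval 0.33 to 1.07, edgeR adjusted p = 0.0442), with 4 of 4 mice higher. Because its single annotated transcript is 93092 bases long, these counts amount to only 0.305 ± 0.0574 TPM with FAC and 0.188 ± 0.0519 TPM in controls. Without control mouse 2 the log2 change was 0.51 (adjusted p = 0.0506). The call held when FAC 4 was left out (0.0236). It ended without FAC 1 (0.0585), FAC 2 (0.121), FAC 3 (0.170), control 1 (0.0739), control 3 (0.0579) or control 4 (0.0602). It also ended in DESeq2 (0.0665), with effective length as an offset (0.0908), in limma on TPM (log2 change 0.14, 0.440) and in limma on the deposited signal (0.0989). The limma fit on TPM adds 1 to each value before the log. That exceeds every TPM value of Kcnq1ot1 and shrinks its change, so this fit cannot decide on the gene.

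Kcnq1ot1 lies within Kcnq1 on the opposite strand in GENCODE M21, and Kcnq1, a potassium channel gene, had a count of 0 in all 8 libraries, which at 3 counts allows up to 0.0816 to 0.119 CPM. Of 14 listed genes of the Kcnq1 imprinted domain, 8 were tested and none was called in edgeR, with or without the replicate block, or in DESeq2, and none had an unadjusted edgeR p under 0.05. The most abundant were Nap1l4, a histone chaperone gene, with 230 ± 4.49 CPM with FAC and 232 ± 2.50 CPM in controls, and Tssc4, with 37.6 ± 1.72 CPM with FAC and 40.03 ± 1.48 CPM in controls.

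Among the 6 snoRNA host genes, Snhg15 rose. Its levels were 62.4, 67.3, 59.7 and 61.7 CPM in FAC mice 1 to 4, against 50.2, 54.8, 47.5 and 56.0 CPM in control mice 1 to 4, with no overlap. The means were 62.8 ± 3.23 CPM with FAC and 52.1 ± 3.99 CPM in controls, a log2 change of 0.27 (SE 0.06, 95% confidence interval 0.14 to 0.40, edgeR adjusted p = 0.0284), and 4 of 4 mice were higher. Per length the difference was smaller, 92.4 ± 7.48 TPM with FAC and 83.3 ± 1.84 TPM in controls. With effective length as an offset the log2 change was 0.11 (adjusted p = 0.470), and limma gave 0.14 on TPM (0.258) and 0.10 on the deposited signal (0.507). The call also ended without FAC 2 (0.127), FAC 3 (0.0646), control 1 (0.0889) or control 3 (0.0931).

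Gas5, whose name comes from its accumulation in growth-arrested cells, was the most abundant of the 10 per length. It stood at 454, 439, 443 and 337 CPM in FAC mice 1 to 4, against 341, 364, 342 and 349 CPM in control mice 1 to 4. FAC mice 1 to 3 lay above all controls and FAC mouse 4 below them. The log2 change was 0.26 (SE 0.07, 95% confidence interval 0.10 to 0.42) and did not pass the test (edgeR adjusted p = 0.0776). Gas5 was called with the replicate block (adjusted p = 0.0226), in DESeq2 (0.0126), without the filter on low counts (0.000726) and without FAC 4 (log2 change 0.35, adjusted p = 0.000152). In GENCODE M21, Gas5 overlaps Zbtb37, a zinc finger gene on the other strand, whose log2 change was 0.32 (SE 0.08, edgeR adjusted p = 0.0531). The library kit keeps strand, but the labels and headers do not say whether the counting used it, so reads of the overlap may not be told apart.

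The other 4 snoRNA hosts did not pass the test in either fit. Snhg1 had 222, 212, 209 and 180 CPM in FAC mice 1 to 4, against 186, 197, 179 and 192 CPM in control mice 1 to 4, with overlapping groups and a log2 change of 0.13 (SE 0.06, edgeR adjusted p = 0.262). Without FAC 4 it was called (log2 change 0.18, adjusted p = 0.0298). Snhg5 ran from 66.3 to 78.9 CPM with FAC and from 67.4 to 73.5 CPM in controls, and Snhg12 from 52.2 to 65.2 CPM with FAC and from 53.8 to 62.3 CPM in controls. Both sets of groups overlapped, and Snhg5 and Snhg12 differed by 0.07 (SE 0.06, 95% confidence interval -0.05 to 0.19) and 0.10 (SE 0.07, -0.06 to 0.25) on the log2 scale. Snhg8 was the only one of the 10 genes with a negative value, -0.04 (SE 0.10, -0.27 to 0.18, edgeR adjusted p = 0.860). Its libraries ran from 15.2 to 20.6 CPM with FAC and from 16.3 to 20.5 CPM in controls, and 2 of 4 mice were higher.

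Mir155hg had 29.4, 25.6, 27.4 and 18.4 CPM in FAC mice 1 to 4, against 18.2, 22.8, 19.4 and 17.1 CPM in control mice 1 to 4. FAC mouse 4 fell within the range of the controls, although 4 of 4 mice were higher with FAC than without it, by 0.69, 0.16, 0.49 and 0.10 on the log2 scale. The log2 change of 0.38 (SE 0.13, 95% confidence interval 0.10 to 0.65) did not pass the test (edgeR adjusted p = 0.132). Mir155hg was called with the replicate block (adjusted p = 0.0259), without the filter on low counts (0.00750) and without FAC 4 (log2 change 0.49, adjusted p = 0.0103).

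**Figure D2:**
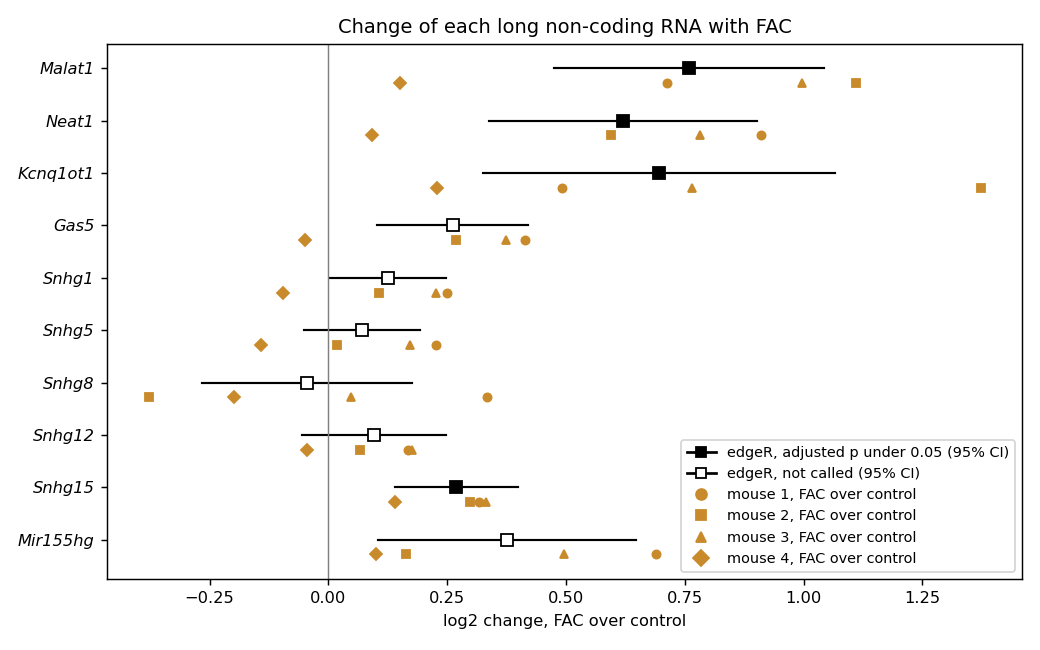
Log2 change of each gene, FAC over control, from edgeR (squares, filled where the adjusted p is under 0.05, with 95% confidence intervals) and within each mouse (smaller marks). Malat1, Neat1 and Kcnq1ot1 lie farthest to the right, and the mark of mouse 4 is the lowest of the 4 mice in 9 of 10 genes.

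The mice differed in how many of the 10 genes were higher with FAC: 10 in mouse 1, 9 in mouse 2, 10 in mouse 3 and 5 in mouse 4. The median log2 change of the 10 was 0.37, 0.22, 0.35 and 0.02 in mice 1 to 4. The FAC library of mouse 4 also differed from the other FAC libraries as a whole. It had 18929 genes with a count above 0, against 19507, 19792 and 19677 in FAC mice 1 to 3 and 18649 to 19507 in controls. Its total counts and its mitochondrial share (1.22%) were the lowest of all libraries. Whether this bears on the 10 genes was not tested. Without the FAC library of mouse 4, 7 of the 10 genes were called higher in edgeR, beside 2.97% of the 13620 genes tested then. Without FAC 2, FAC 3, control 1 or control 3, Malat1 alone of the 10 was called. Calls over all genes, 438 in the main fit, also fell in these fits. They were 168 of 13530, 147 of 13564, 188 of 13662 and 247 of 13577 genes tested, in that order. Without control 2, Malat1 and Snhg15 were called, beside 209 of all 13590 genes tested then.

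The order of levels per length was the same in both groups except for Malat1. In FAC libraries the mean TPM was 759 for Gas5, 329 for Snhg1, 152 for Malat1, 121 for Snhg5, 103 for Snhg12, 92.4 for Snhg15, 65.4 for Snhg8, 32.2 for Mir155hg, 5.68 for Neat1 and 0.305 for Kcnq1ot1. The ranges of Malat1 and Snhg5, and of Snhg12 and Snhg15, overlapped there. In control libraries Malat1, at 85.1 TPM, came after Snhg5 (115 TPM) and Snhg12 (98.5 TPM) and overlapped Snhg12 and Snhg15 (83.3 TPM). Its range there, 63.1 to 99.9 TPM, also overlapped that of Snhg8, 59.7 to 72.2 TPM. The other genes kept their order in controls, with 676 TPM for Gas5, 322 for Snhg1, 67.2 for Snhg8, 24.2 for Mir155hg, 3.72 for Neat1 and 0.188 for Kcnq1ot1.

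The files also give, for each gene and library, a transcript length that RSEM averages over the isoforms weighted by their abundance, so it moves only when the mix of isoforms moves. It varied for 8 of the 10 genes; Kcnq1ot1 and Mir155hg gave 1 length throughout. The mean was longer with FAC in 7 of the 8, with a median difference of 2.7%, whereas 41.7% of 10511 genes with a varying length were longer and their median was -0.389%. Snhg15 was 1058, 1118, 1179 and 1132 bases in FAC mice 1 to 4, against 969, 1047, 961 and 1115 bases in control mice 1 to 4, longer in 4 of 4 mice and by 9.64% on average. Snhg1 was 1071, 989, 1087 and 1019 bases with FAC, against 954, 952, 963 and 1001 bases in controls, and Gas5 was 942, 941, 986 and 868 bases with FAC, against 874, 877, 865 and 867 bases in controls. Both were longer in 4 of 4 mice, by 7.65% and 7.31%, as was Snhg8, by 1.17%. A length longer in 4 of 4 mice was found in 5.56% of all genes, and a length shorter in 4 of 4 mice in 9.47% of all genes but in none of these 8.

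No length difference passed its test. The two-sided exact permutation p over 70 assignments of the libraries was 0.0571 for Snhg15 and Snhg1 and 0.0857 for Gas5 (each 0.229 adjusted over the 8 genes), where 0.0286 is the smallest p the design can give. After adjustment over 8 genes, a gene alone at that smallest p could not pass. The adjusted test therefore cannot decide on a change of length in a single gene. The groups overlapped for each of the 8 genes, whereas over all genes 1.74% had FAC libraries longer than every control and 2.89% shorter. The isoform mix rests on RSEM's division of shared reads between as many as 149 annotated isoforms for Gas5, against 9 for Snhg15. Of 12 other snoRNA host genes with a varying length, 11 were longer with FAC, with a median of 5.69%. Snhg16 averaged 1820.3 bases with FAC and 1596 bases in controls, and Snhg17 averaged 2186 bases with FAC and 2018 bases in controls, each longer in 4 of 4 mice.

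**Figure D3:**
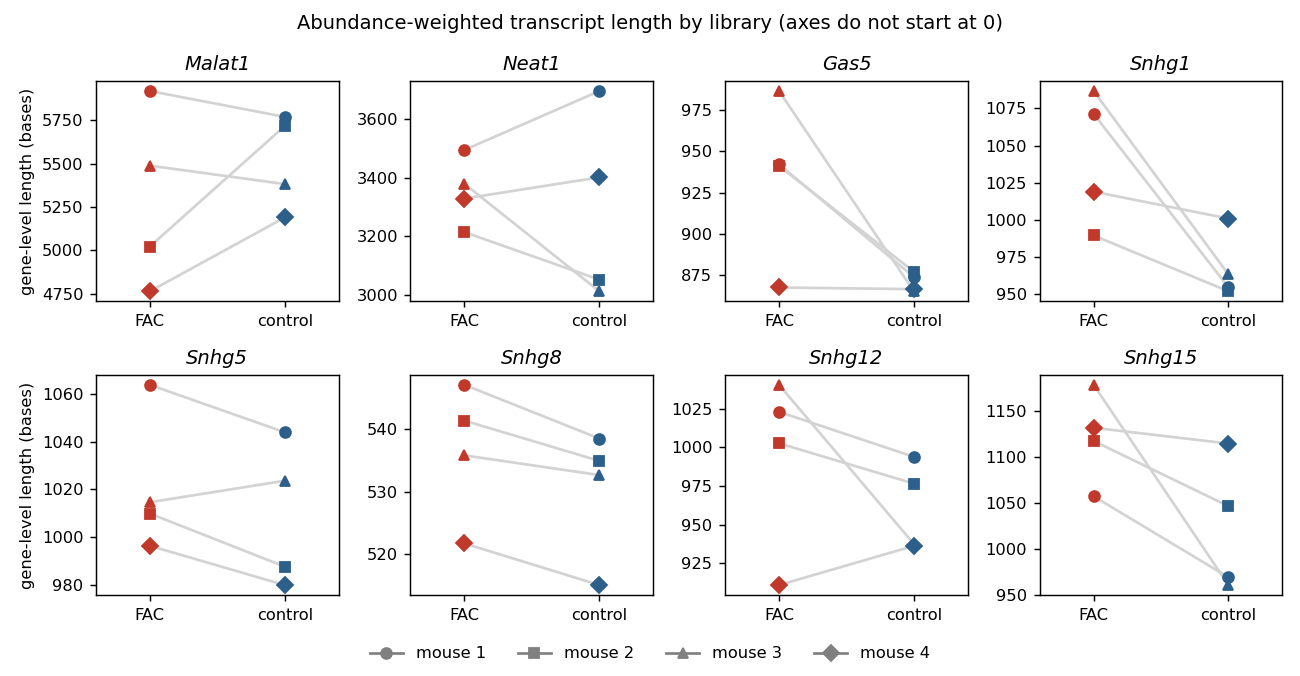
Abundance-weighted transcript length, in bases, of the 8 genes whose length varied, with FAC on the left and control on the right and a line joining the cultures of each mouse; the vertical axes do not start at 0. The lines of Gas5, Snhg1, Snhg8 and Snhg15 all run higher on the FAC side, and those of Malat1 and Neat1 run both ways.

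The rise of Malat1, Neat1 and Kcnq1ot1 went with a larger share of long non-coding RNA in the libraries as a whole. Leaving out the 10 genes, such genes took 0.758%, 0.744%, 0.786% and 0.680% of counts in FAC mice 1 to 4, against 0.660%, 0.652%, 0.674% and 0.676% in control mice 1 to 4. The means were 0.742 ± 0.0449% with FAC and 0.665 ± 0.0115% in controls (SD, n = 4 each), and FAC was higher in 4 of 4 mice (two-sided exact permutation p = 0.0286, the smallest the design can give). Of all 1123 other tested long non-coding RNA genes, 46 were called higher and 1 lower, with a median log2 change of 0.28 and 850 positive. Of the 72 among them at 10 CPM or more, 15 were called higher and 1 lower, with a median log2 change of 0.08. The shares of mitochondrial and ribosomal protein counts did not pass the same exact permutation test (p = 0.314 and 0.343). The part of the wider shift in the change of the 10 genes was not tested.

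**Figure D4:**
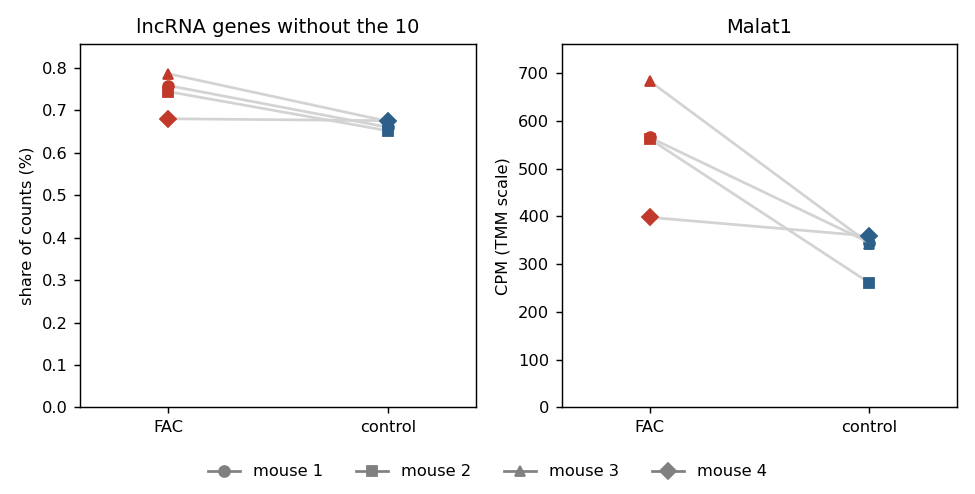
Left, the share of counts (%) in long non-coding RNA genes other than the 10; right, the level of Malat1 (CPM, TMM scale); FAC on the left and control on the right of each panel, with a line joining the cultures of each mouse. In both panels the FAC libraries of mice 1 to 3 lie well above their controls, and those of mouse 4 lie close together (0.680% with FAC and 0.676% in control for the share).

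Of 13 other snoRNA host genes tested, 3 rose and none fell, with a median log2 change of 0.24. Snhg16 had 44.2, 52.8, 50.6 and 44.0 CPM in FAC mice 1 to 4, against 30.2, 34.6, 30.3 and 35.7 CPM in control mice 1 to 4 (log2 change 0.55, SE 0.08, edgeR adjusted p = 0.00121). Snhg17 averaged 109 ± 9.97 CPM with FAC and 76.9 ± 7.94 CPM in controls (0.51, SE 0.07, adjusted p = 0.00220). The FAC libraries of both genes lay above all controls, and both calls ended with effective length as an offset (adjusted p = 0.0577 for Snhg16 and 0.0607 for Snhg17) and in limma on the deposited signal (0.0655 for Snhg16 and 0.0669 for Snhg17); that of Snhg17 ended in limma on TPM too (0.0739). Snhg4, of which a second gene entry was not called, rose by 0.41 (SE 0.10, adjusted p = 0.0470), a call that ended without any 1 library other than FAC 4 (up to 0.172, without FAC 3), with effective length as an offset (0.183), in limma on TPM (0.195) and in limma on the deposited signal (0.216).

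Of 3 tested microRNA host genes, Mir17hg, which carries the miR-17 to miR-92 cluster, rose. It stood at 31.7, 27.8, 38.5 and 23.2 CPM in FAC mice 1 to 4, against 19.9, 17.4, 18.6 and 18.1 CPM in control mice 1 to 4, a log2 change of 0.71 (SE 0.12, edgeR adjusted p = 0.00676). Its only lost call among the settings tried was in limma on TPM (0.0599). Of 17 tested genes of a list of other named RNAs, most of them non-coding, 3 rose and 1 fell. The list includes Dleu7 and 4930523C07Rik, protein-coding in GENCODE M21, and Trerf1, which is known to encode a protein. Dleu7 and Trerf1 are among the 17 tested, and none of these protein genes was called. Jpx, whose RNA activates Xist, averaged 5.65 ± 0.627 CPM with FAC and 3.37 ± 0.343 CPM in controls (0.75, SE 0.14, adjusted p = 0.0104), and 2700038G22Rik rose by 0.51 (adjusted p = 0.0131). Both calls ended with effective length as an offset (0.121 for Jpx and 0.163 for 2700038G22Rik) and in both limma fits (0.0877 and 0.133 for Jpx, 0.152 and 0.173 for 2700038G22Rik), and that of 2700038G22Rik also without FAC 2 (0.0535) or FAC 3 (0.0673).

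The non-coding RNA that fell was Rpph1, the RNA subunit of ribonuclease P, which is made by RNA polymerase III and carries no poly(A) tail. It had 50.5, 57.8, 53.7 and 61.3 CPM in FAC mice 1 to 4, against 84.3, 102, 91.2 and 101 CPM in control mice 1 to 4. All FAC libraries were below all controls, and the log2 change was -0.76 (SE 0.07, edgeR adjusted p = 3.08e-05), a call that no setting tried ended. The libraries were made with an mRNA kit. Whether its capture of an RNA without a tail differed between libraries was not tested, so the counts of Rpph1 may not follow its level in the cells. A430093F15Rik, the remaining call, rose by 0.25 (adjusted p = 0.0451), and that call ended without any 1 library other than FAC 4 (up to 0.153, without FAC 3) and with effective length as an offset (0.556), in limma on TPM (0.313) and in limma on the deposited signal (0.596).

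Protein genes of the bodies that Neat1 and Malat1 belong to gave few calls in edgeR on the group alone. Of 19 paraspeckle protein genes, none rose and 1 fell, with a median log2 change of -0.05 and 3 of 19 positive. Over all tested genes 1.1% were called lower. DESeq2 called 5 of the 19 lower and none higher, beside 299 lower and 439 higher of all 25076 genes in that fit. Pspc1, a core paraspeckle component, averaged 89.4 ± 2.17 CPM with FAC and 100.5 ± 3.52 CPM in controls (-0.17, SE 0.04, edgeR adjusted p = 0.0423), a call lost without any 1 library other than FAC 1 (up to 0.136, without FAC 3). With the replicate block 4 of the 19 were lower, Hnrnpa1, Nudt21 and Rbmx being added, beside 2.8% of all genes lower. Of 19 nuclear speckle protein genes 1 rose, Srrm2, which scaffolds the speckle, with 1253 ± 61.9 CPM with FAC and 1061 ± 60.1 CPM in controls (0.24, SE 0.05, adjusted p = 0.0172). Its call ended without FAC 2 (0.0770) or FAC 3 (0.0744). With the replicate block 5 of these 19 were higher and 1 was lower, beside 4.07% and 2.8% of all genes. DESeq2 called 1 of the 19 higher and 1 lower.

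The proteins that bind and mature the snoRNAs were also examined. Of 16 genes for snoRNA-protein particles, 3 fell and none rose, with a median log2 change of -0.08. Gar1, a subunit of H/ACA particles, averaged 139 ± 1.54 CPM with FAC and 159 ± 8.64 CPM in controls (-0.20, SE 0.04, edgeR adjusted p = 0.0239). Snu13, a protein of box C/D particles, fell by 0.15 (SE 0.04, adjusted p = 0.0434) and Znhit6, an assembly factor, fell by 0.20 (SE 0.05, adjusted p = 0.0499). The calls of Snu13 and Znhit6 ended with TMM factors from protein-coding genes (0.0536 for Snu13 and 0.0588 for Znhit6) and without FAC 2 (0.128 and 0.144), among other single libraries. That of Gar1 ended without FAC 2, FAC 3, control 1, control 2 or control 3 (up to 0.0841, without FAC 2). With effective length as an offset the calls of Pspc1 (0.188), Gar1 (0.391), Snu13 (0.101) and Znhit6 (0.163) ended too, as they did in both limma fits (0.0943 to 0.569).

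Of 16 nonsense-mediated decay genes none was called in edgeR, with or without the block, or in DESeq2, and 2 had an unadjusted edgeR p under 0.05. The most abundant was Smg1, the kinase of the pathway, with 388 ± 27.2 CPM with FAC and 343 ± 42.8 CPM in controls (0.18, SE 0.08, edgeR adjusted p = 0.239), followed by Upf1, its helicase (-0.02, SE 0.04). Of 19 nuclear exosome and targeting genes none was called in edgeR on the group alone, and 8 had an unadjusted p under 0.05. The replicate block called 1 higher (Zfc3h1) and 1 lower (Exosc4), and DESeq2 called 1 higher and 2 lower. Srrt, which links the cap-binding complex to RNA decay, and Dis3, a nuclease of the exosome, were the most abundant, with log2 changes of 0.05 (SE 0.03) and -0.02 (SE 0.04). Of 19 other genes with terminal oligopyrimidine mRNAs none was called in edgeR on the group alone or in DESeq2, and 5 had an unadjusted edgeR p under 0.05. Their median log2 change was -0.06, with 1 of 19 positive, and the replicate block called 1 lower (Npm1, a nucleolar chaperone gene, -0.13, adjusted p = 0.0367). Eef1a1, a translation elongation factor, stood at 12595 ± 300.2 CPM with FAC and 12662 ± 258 CPM in controls, and Eef2 differed by -0.08 (SE 0.04).

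Small RNAs carried by the 10 genes were almost undetected in these libraries. As the libraries were made with an mRNA kit, the counts do not give the level of such RNAs in the cells. Of 11 matched in the files, none passed the filter on low counts, and their summed counts ran from 0 to 8 per library in both groups. Mir155 itself had a count of 0 in all 8 libraries, so that only its host transcript was measured.

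Of 20 genes reported as targets of miR-155, 1 rose and none fell, with a median log2 change of -0.03. Ikbke, a kinase of innate immune signalling, had 63.6, 66.0, 66.7 and 51.3 CPM in FAC mice 1 to 4, against 38.9, 40.6, 44.2 and 40.8 CPM in control mice 1 to 4 (0.59, SE 0.08, edgeR adjusted p = 0.000678), with no overlap, a call that no setting tried ended. Socs1, an inhibitor of cytokine signalling, differed by -0.36 (SE 0.09, adjusted p = 0.0561, and 0.00424 with the replicate block). Il6ra, the interleukin 6 receptor, differed by -0.24 (SE 0.06, adjusted p = 0.0513, and 0.00416 with the block). Socs1 and Il6ra were chosen after their values were seen. The sites of these 3 genes are given from their 3′ untranslated regions (GENCODE M21, GRCm38), written as DNA with the 7 bases that pair with the seed in capitals and, for Socs1, the A that follows them, which completes the 8-base site. Il6ra holds 2 such 7-base sites, of which the first is shown. They lie at chr1:131255145-131255166 on the minus strand for Ikbke, chr16:10784199-10784220 on the minus strand for Socs1 and chr3:89869532-89869553 on the minus strand for Il6ra.
Ikbke site: acaaactAGCATTActttgact
Socs1 site: gtgccgcAGCATTAAgtggggg
Il6ra site: tgacctaAGCATTAgttatttt

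Across all tested genes with an annotated 3′ untranslated region, 390 held the 8-base site AGCATTAA, of which 8 were called higher and 2 lower, with a median log2 change of -0.00. Another 704 held only the 7-base site AGCATTA, of which 19 were higher and 9 lower, with a median of -0.02. Of the 9803 genes with neither, 201 were higher and 128 lower, with a median of -0.01.

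The nearest tested genes on each side, in the order of GENCODE M21, were 18 genes outside the 10, of which none was called in edgeR, 3 had an unadjusted p under 0.05 and 9 had a positive log2 change. Malat1 and Neat1 are each other's neighbours. Frmd8, the gene on the other side of Neat1, differed by 0.22 (SE 0.06, edgeR adjusted p = 0.0640).

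The genes whose pattern over the 8 libraries was most like that of each called gene were found among 10391 genes, by the root mean square difference of log2 CPM after each gene was centred on its own mean. For Malat1 these were Dnajb13 (0.104), Gabbr1 (0.112) and Mir17hg (0.126), and for Neat1 they were Zfp948 (0.0834), Rad9b (0.0960) and Ikbke (0.105). For Kcnq1ot1 they were A930004J17Rik (0.128), Plppr3 (0.160) and Dnajb13 (0.167). For Snhg15 they were Bcl2l11 (0.0597), Pan3 (0.0627) and Ppox (0.0635). All come from the same 8 libraries, so the likeness is a description.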

How the data were processed

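Libraries were made with a stranded mRNA kit from 250 ng of total RNA per culture, per the labels' protocols. The submitters' processing notes list, without saying what each did, the build GRCm39 and the tools STAR 2.7.6a, RSEM 1.3.1, FastQC, R 3.6.3, DESeq2 1.26.0 and DESeq; no annotation release is named there. The authors deposited RSEM gene tables, per the file headers, with expected counts (estimated, not scaled between libraries), TPM and transcript lengths. The authors' further table holds a normalised signal for 13751 genes; its scaling is not described in the labels or headers.

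Expected counts were rounded and tested with edgeR 4.0.16 (R 4.3.3): expression filter with minimum count 10 and minimum total 15, TMM factors, quasi-likelihood test on the group alone, Benjamini-Hochberg adjustment over 13378 genes, which held 99.9% of counts. The SE is the absolute log2 change over the square root of F and is approximate. Alternatives were DESeq2's size factors, TMM factors from protein-coding genes, no filter, RSEM's effective length as an offset, the mouse as a replicate block, DESeq2 1.42.0, limma 3.58.1 on log2(TPM + 1) and on log2(signal + 1), and each library left out. Same-numbered libraries come from 1 mouse per the labels; across genes their deviations from the group mean correlated at r = 0.137, 0.0165, 0.0647 and 0.139 in mice 1 to 4, against at most 0.0331 between mice. Libraries within a group varied beyond sampling noise (chi-square per degree of freedom 5.23 to 16.9), so each library counted once. Reads carry no molecular identifiers, so floors of 3 counts cover counting error only.

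For lengths and count shares, each test was an exact two-sided permutation test over 70 assignments. Gene types, symbols of genes outside the deposited table, neighbours and 3′ untranslated regions came from GENCODE M21 (GRCm38), gene starts and miR-155 from RefSeq (GRCm38.p6); both are of an earlier build than the files. The edgeR script was tested on simulated data. The 10 genes, the lists and the tests were chosen with earlier results of these data known. From each list, called genes were named, at most 4, or, with none called, the 2 of highest level; the genes most like each called gene were the 3 nearest by pattern. Genes named only for a call with the replicate block were chosen after their values were seen.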

Additional observations from a re-analysis of the deposited data

Results flagged for a closer look

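Of 68 sets of 4 values examined (CPM, TPM and, where it varied, length of each gene, and 6 measures of each library such as total counts, in each group), 5 held a library farther from the other 3 than Dixon's 95% limit allows; chance alone flags about 1 in 20. In the FAC group, mouse 4 was low for Gas5 (337 CPM) and for Snhg12 (52.2 CPM). In controls, mouse 2 was low for Malat1 (261 CPM) and for Kcnq1ot1 (7.64 CPM and 0.11 TPM).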

How the results depend on the processing

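The number of all genes called, 438, was 919 with the replicate block, 738 in DESeq2, 736 without the filter, 187 with effective length as an offset, 144 in limma on TPM and 156 in limma on the deposited signal, and 147 to 549 with 1 library left out. The number of the 10 genes called, 4, was 1 with the length offset, 1 in each limma fit and 1 to 7 with 1 library left out. It was 6 with the replicate block, which changed no call among the 10 other than adding Gas5 and Mir155hg. Of all calls, 66.4% were higher with FAC (291 higher, 147 lower). Over the alternatives this share ran from 54.4% without FAC 3 (80 higher, 67 lower) to 77.8% in limma on TPM (112 higher, 32 lower). Malat1 kept its call in 16 of 16 alternatives, Snhg15 in 9, Neat1 in 8 and Kcnq1ot1 in 5. The sign changed for Snhg1 with the length offset (-0.0096) and in limma on the deposited signal (-0.019). It changed for Snhg8 in fits with 1 library left out (range -0.13 to 0.022). With 1 library left out the length difference, FAC minus control, ran from -28.9 to 199 bases for Neat1 (-15.6 without control 2, -28.9 without control 3) and from -1.83 (without FAC 1) to 24.1 bases for Snhg5. The cause was not tested.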
